A study of Homo sapiens with 5 samples.

Results

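The ZFP36 and BTG/TOB mRNA decay regulators were followed in LNCaP, an established human prostate cancer line that responds to androgen, treated with celastrol or with its solvent DMSO. The members are the 8 genes ZFP36, ZFP36L1, ZFP36L2, BTG1, BTG2, BTG3, TOB1 and TOB2, taken as every probe set of the array that names one of them alone. This gave 16 probe sets for 7 genes, of 22215 probe sets and 12165 named genes in all; BTG2 is named by no probe set in the annotation used and has no value here. The set was chosen by a measured value, the 2-fold higher ZFP36 signal on the celastrol arrays of this series, so the members' differences between celastrol and DMSO are given as a description, without p-values. The fit across all probe sets included the members. How many of them it and its alternatives called is given in a single paragraph, with nothing read from it.

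Celastrol is a triterpenoid from thunder god vine that reacts with protein thiols. Cultures in RPMI medium with serum received celastrol at 1.25 µM (2 arrays) or DMSO (3 arrays), both for 6 h, and RNA from each was hybridised to 1 Affymetrix array. All arrays are labelled as biological replicates of 1 cell line, and whether they came from separate cultures is not given, so any p-value measures the spread between these arrays. Levels are log2(intensity + 1) per probe set, and differences are celastrol minus the mean of DMSO replicates 1 and 2 of these log2 values, in which dim genes appear to change less than they do.

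DMSO replicate 3 is shown apart, because its profile is unlike that of LNCaP cells. It correlated with the other 4 arrays at 0.843 to 0.844 over all probe sets, where those correlated with one another at 0.994 to 0.998. Of 9 markers of luminal prostate cells with a probe set, 9 were at least 2-fold lower on it than on the other DMSO arrays, with a median level of 4.56 against 9.93 to 10.2 on the other 4. Of 13 such markers of B and T lymphocytes, 10 were at least 2-fold higher on it, with a median of 9.14 against 4.32 to 4.39. The medians for myeloid cells, fibroblasts and endothelial cells lay between 4.24 and 4.58 on all 5 arrays. The prostate antigen genes KLK3 and FOLH1 had means of 10.5 and 12.8 on the other 4 arrays and 4.56 and 4.43 on DMSO replicate 3, while the B cell gene MS4A1 had 4.37 and 10.9.

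Messenger RNAs are destroyed mainly from their tails: deadenylases shorten the poly(A) tail, and the body is then decapped and degraded. ZFP36 (tristetraprolin) and its relatives ZFP36L1 and ZFP36L2 bind AU-rich elements of short-lived mRNAs through paired zinc fingers and bring in the CCR4-NOT deadenylase. BTG and TOB proteins share a domain that binds the deadenylase subunits CNOT7 and CNOT8, are known as brakes on cell proliferation, and through partners such as poly(A)-binding protein speed tail shortening. Several members are themselves encoded by short-lived mRNAs that respond within hours to growth factors and stress.

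Promoter sequences from RefSeq (GRCh38.p14) were found for 7 of the 8 genes, in 9 windows, and ZFP36L2 had none in the table. The 250 bases before the annotated start are shown for ZFP36 and BTG1, the members that differed most between the groups in opposite directions, and for ZFP36L1, whose window holds the CRE match and the heat shock element unit. They lie at chr19:39406597-39406846 on the plus strand, chr12:92145847-92146096 on the minus strand and chr14:68793417-68793666 on the minus strand, each written in the direction of transcription. Capitals mark matches to the motifs listed after them.
ZFP36: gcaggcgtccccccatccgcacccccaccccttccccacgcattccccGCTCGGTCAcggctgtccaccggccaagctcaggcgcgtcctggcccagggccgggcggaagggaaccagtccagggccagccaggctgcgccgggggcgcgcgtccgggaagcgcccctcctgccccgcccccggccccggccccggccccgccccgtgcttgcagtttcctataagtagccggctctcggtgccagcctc
BTG1: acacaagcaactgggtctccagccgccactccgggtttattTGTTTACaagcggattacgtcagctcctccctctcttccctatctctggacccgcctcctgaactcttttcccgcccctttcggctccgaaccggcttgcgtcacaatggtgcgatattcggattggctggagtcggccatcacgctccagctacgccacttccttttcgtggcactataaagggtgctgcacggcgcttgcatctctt
ZFP36L1: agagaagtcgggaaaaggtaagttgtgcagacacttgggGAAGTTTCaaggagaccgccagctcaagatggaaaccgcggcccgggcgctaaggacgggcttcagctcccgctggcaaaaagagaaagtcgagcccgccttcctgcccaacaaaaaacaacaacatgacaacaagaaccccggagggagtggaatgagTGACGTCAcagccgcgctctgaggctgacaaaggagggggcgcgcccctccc

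Each window of 250 bases before and 50 after a start was searched on both strands for 7 motifs. The forkhead motif TGTTTAC was found in BTG1 and is in 3.42% of 35116 promoter windows. The CRE TGACGTCA and the heat shock element unit GAANNTTC were found in this ZFP36L1 window and are in 1.85% and 6.77% of all windows. The NRF2 element TGACNNNGC, which can overlap an AP-1 site, was found in 3 of 9 member windows (ZFP36, TOB2 and the other ZFP36L1 window) and is in 13.3% of all windows. AP-1 (TGACTCA), the C/EBP-ATF element (TGATGNAAT) and the serum response element core (CCATATTAG) were in 0 of 9 member windows, and in 4.95%, 0.991% and 0.0968% of all. The single ZFP36 match and the single BTG1 match are of different motifs, and both TOB1 windows held none of the 7.

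ZFP36 stood higher with celastrol and BTG1 lower, each by about 2-fold, while TOB1 was lower by a smaller amount and the other members differed little. ZFP36, at its 1 probe set (201531_at), had levels of 8.01 and 7.95 on the celastrol arrays and 6.86 and 6.997 on DMSO replicates 1 and 2. Both celastrol arrays lay above both of these DMSO arrays, by 0.96 to 1.15 in the 4 pairs. The difference was 1.05 (SE 0.0745, n = 2 per group), a 2.07-fold higher intensity and the 36th highest of 8091 genes above the intensity filter. A difference of at least 2-fold upward was found for 0.507% of those genes.

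ZFP36L1, which acts on many of the same AU-rich targets, has 4 probe sets. The brightest of them (211962_s_at) read 6.79 on both celastrol arrays and 6.51 on both DMSO arrays, a difference of 0.28. The celastrol values are identical, as RMA values often are here: 19.3% of all probe sets were tied on the celastrol pair and 17.7% on the DMSO pair, so the small SE of 0.0023 is not a measure of precision. The next probe set (211965_at) had 5.10 and 4.97 with celastrol against 4.92 and 4.96, a difference of 0.09 (SE 0.0695). The remaining pair, 213277_at and 213284_at, were below the intensity filter with overlapping groups and differences of 0.04 and -0.08. The ZFP36L1 probe sets thus differ in size, and the brightest alone showed a difference above 0.1.

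ZFP36L2, the third family member, was near the floor of the array in LNCaP cells. Its brightest probe set (201368_at) had 5.25 and 5.18 with celastrol and 5.22 and 5.25 with DMSO, with overlapping groups and a difference of -0.02 (SE 0.0372). The other probe sets, 201367_s_at and 201369_s_at, were below the intensity filter, with differences of -0.02 and 0.11. At this level a change in ZFP36L2 of the size seen for ZFP36 could be understated.

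**Figure D1:**
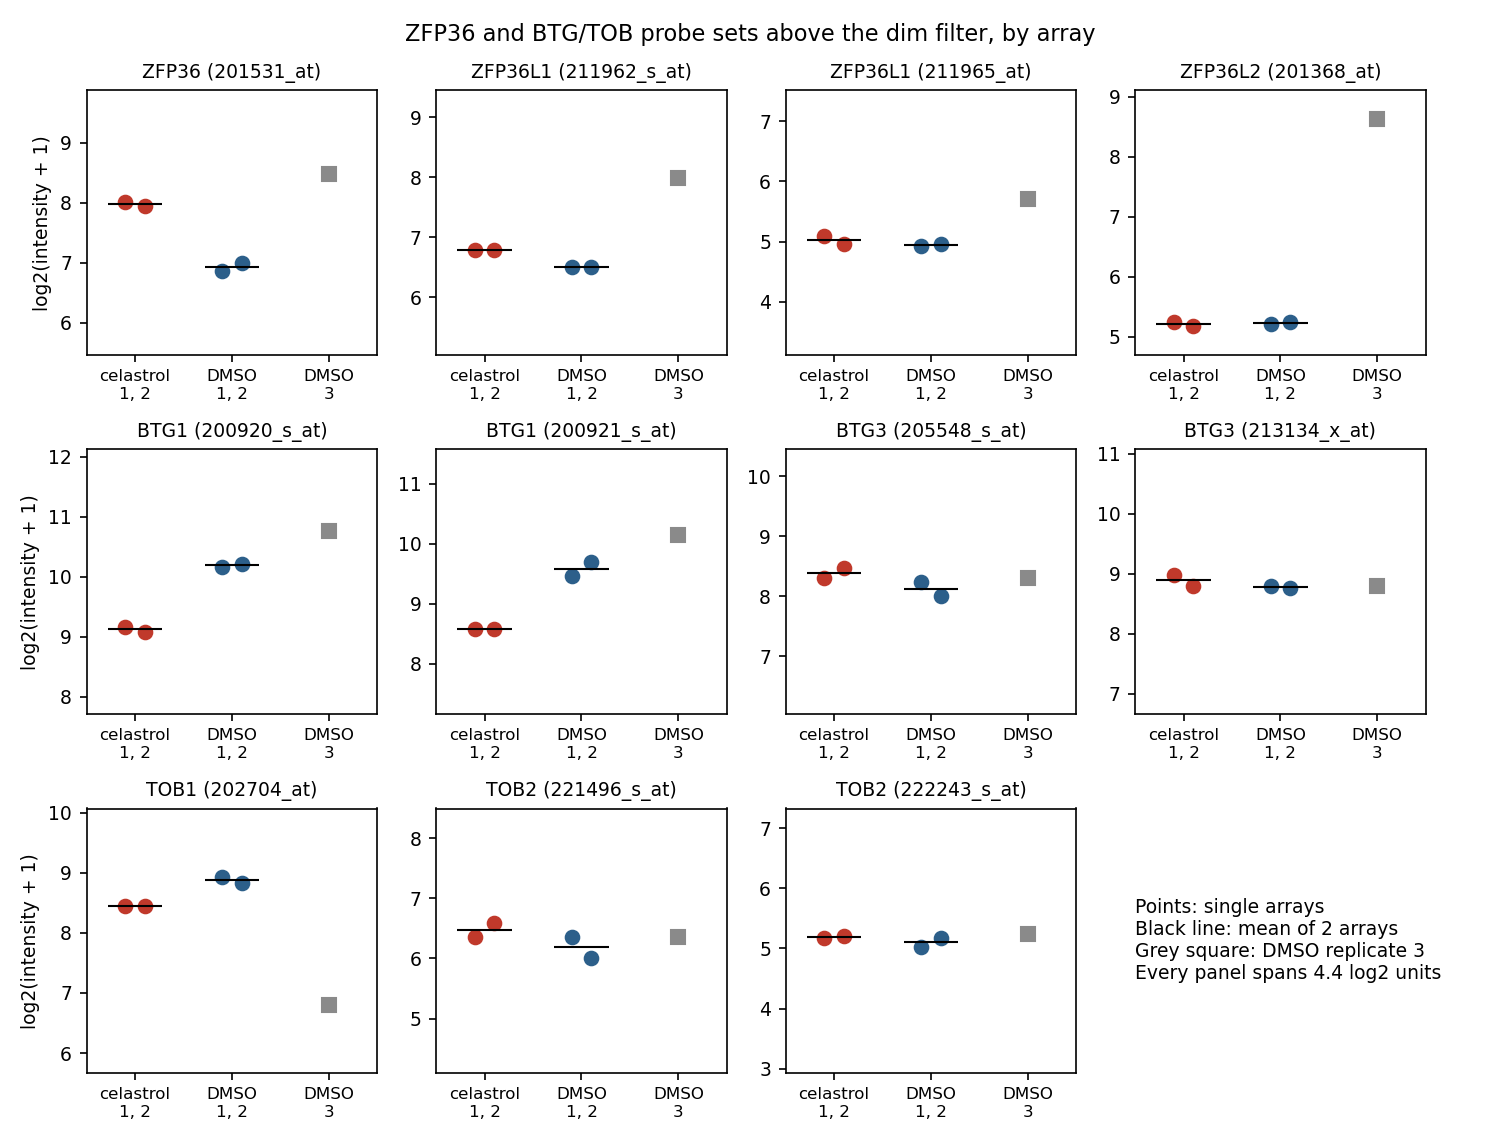
Levels, log2(intensity + 1), of the 11 member probe sets above the intensity filter on each array, with celastrol in red, DMSO replicates 1 and 2 in blue, DMSO replicate 3 as a grey square and group means as black lines. ZFP36 is near 8 with celastrol and 6.93 on average with DMSO, both BTG1 probe sets are lower with celastrol, and ZFP36L2 stands apart on DMSO replicate 3 alone.

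BTG1, an antiproliferative gene first found at a translocation in B cell leukaemia, was lower with celastrol at both of its probe sets. At 200920_s_at the levels were 9.17 and 9.08 with celastrol against 10.16 and 10.22 with DMSO. At 200921_s_at they were 8.59 and 8.59 against 9.46 and 9.70. The groups did not overlap at either, and the differences were -1.06 (SE 0.0495) and -0.99 (SE 0.121), or 2.09-fold and 1.99-fold lower. The difference at the brighter of them was the 19th lowest of the 8091 genes, and 0.272% of those genes were at least 2-fold lower.

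TOB1, a related antiproliferative protein that also binds poly(A)-binding protein, read 8.46 on both celastrol arrays against 8.94 and 8.83 with DMSO. Its groups did not overlap, and the difference of -0.43 (SE 0.0524) corresponds to 1.35-fold lower. The celastrol values are tied, so this SE rests on the DMSO pair alone and is not a measure of precision. The direction was that of BTG1 and opposite to that of ZFP36.

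TOB2, the close relative of TOB1, did not share that direction. At 221496_s_at it had 6.36 and 6.58 with celastrol against 6.36 and 6.01, a difference of 0.29 whose SE of 0.206 is nearly as large. At 222243_s_at the values were 5.18 and 5.20 against 5.03 and 5.18, a difference of 0.09 (SE 0.076). In both cases 1 celastrol array lay within 0.01 of 1 DMSO array.

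BTG3, a family member described as a target of p53, was slightly higher at its 3 probe sets, by less than 0.3. At 205548_s_at the levels were 8.30 and 8.48 against 8.24 and 8.01, a difference of 0.26 (SE 0.145). At 213134_x_at, whose suffix marks probes that may also bind other transcripts, they were 8.98 and 8.80 against 8.79 and 8.76, a difference of 0.12 (SE 0.0893). The third, 215425_at, was below the intensity filter, with a difference of 0.16 (SE 0.125). At the brighter probe sets of BTG3 the lower celastrol array lay closer to DMSO replicate 1 than to the other celastrol array.

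**Figure D2:**
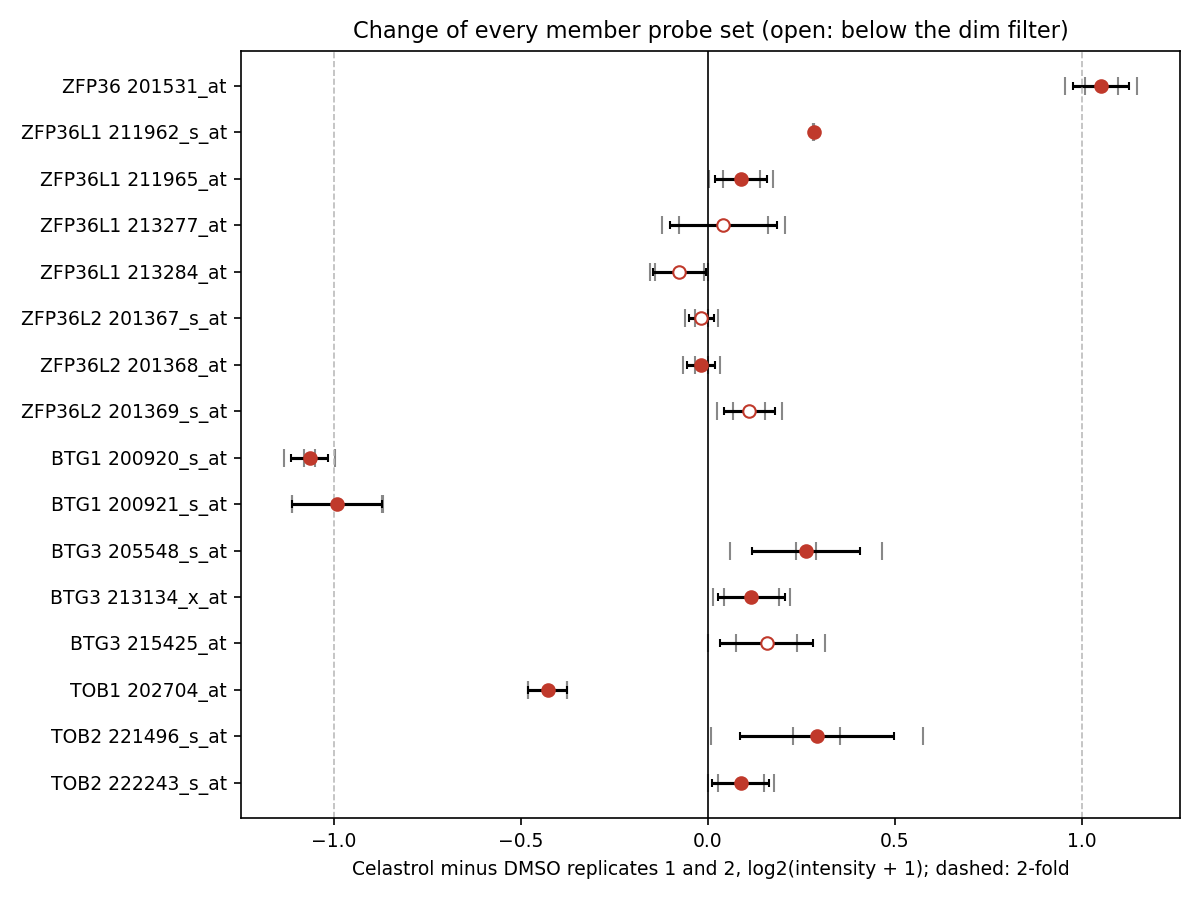
Celastrol minus DMSO replicates 1 and 2 for all 16 member probe sets, in log2(intensity + 1), with the SE from both groups as a bar and the 4 differences between single arrays as grey ticks; open circles are below the intensity filter. ZFP36 lies at 1.05, the BTG1 probe sets at -1.06 and -0.99, TOB1 at -0.43, and the others between -0.08 and 0.29.

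Of the 16 member probe sets, 11 passed the filter that left out the dimmest 40% of probe sets, and all 7 measured genes had at least 1 among them. Celastrol arrays lay above both DMSO arrays for 6 of the 11 and below both for 3, where 15.9% and 25.6% of all probe sets past the filter did. A limma fit across those 13329 probe sets (adjusted p under 0.05) called 1 member probe set higher (ZFP36) and 1 lower (BTG1 at 200920_s_at), where it called 0.503% and 0.405% of all. These counts rest on the contrast by which the set was picked, and they are not evidence about it. Of the alternatives, 8 called 2 to 4 member probe sets, among 119 to 389 called over all probe sets past their filters. The 4 were called with the dimmest 60% left out, where 343 of 8886 probe sets were called. With no intensity filter, 0 member probe sets were called, where 0.009% of all probe sets were. With DMSO replicate 3 included or with the replicate number as a block, 0 member probe sets were called, where 0% of all 13329 were. The difference of ZFP36 lay between 0.98 and 1.12 when 1 array was left out, and those of BTG1 between -1.11 and -0.87.

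On DMSO replicate 3 the members took other levels, and for some of them the distance from the other DMSO arrays exceeded that of celastrol. In RNA from whole cultures, fewer cells of a type and less RNA per cell cannot be told apart. ZFP36L2 stood out most: at 201368_at it read 8.62, which is 10.5-fold above the mean of DMSO replicates 1 and 2, and at 201369_s_at and 201367_s_at it read 6.59 and 5.65, which is 5.17-fold and 2.71-fold above. All 3 of its probe sets were thus high on the array on which lymphocyte markers were high and prostate markers low.

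ZFP36 read 8.48 on that array, above both celastrol arrays and 2.93-fold above the other DMSO mean. ZFP36L1 read 7.98 at 211962_s_at, or 2.77-fold above, and 5.70 at 211965_at, or 1.70-fold above. BTG1 read 10.76 and 10.15, each about 1.5-fold above the mean of DMSO replicates 1 and 2, so that the celastrol arrays stood farther below it than below the other DMSO arrays. TOB1 went the other way, at 6.81, or 4.22-fold below. BTG3 and TOB2 were within 1.13-fold of the mean of DMSO replicates 1 and 2 at all 5 of their probe sets.

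In all, 5 of the 16 member probe sets, from 3 genes, were at least 2-fold higher on DMSO replicate 3 and 1 was at least 2-fold lower, where 7.52% and 10.1% of all probe sets were. With this array included in the DMSO group the difference of ZFP36 shrank to 0.53, and those of ZFP36L1 at 211962_s_at and 211965_at, of ZFP36L2 at 201369_s_at and of TOB1 changed sign, to -0.21, -0.16, -0.68 and 0.26. BTG1 kept its sign, at -1.25 and -1.18. What the cells of this array contribute to these values was not tested.

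**Figure D3:**
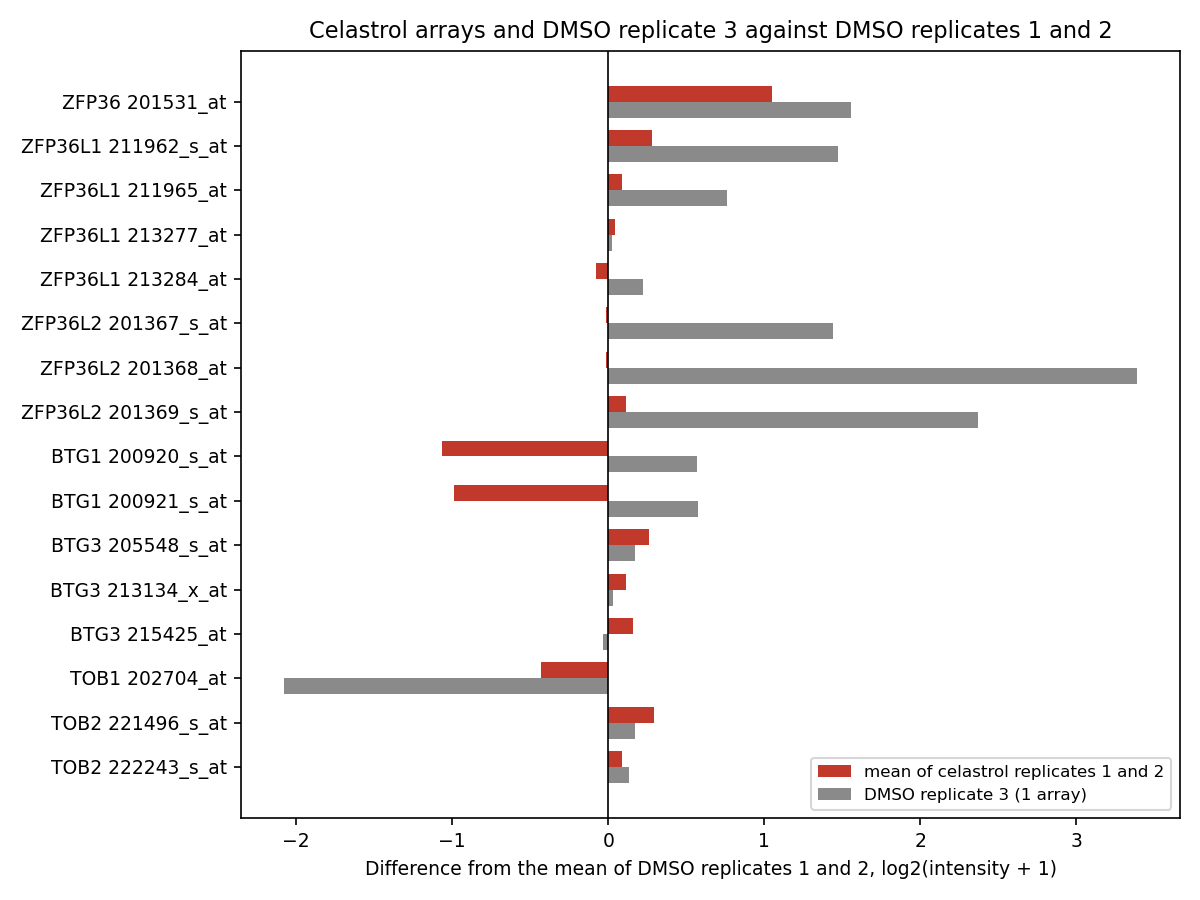
Difference from the mean of DMSO replicates 1 and 2, in log2(intensity + 1), of the mean of the celastrol arrays (red) and of DMSO replicate 3 (grey) for each member probe set. The grey bar of ZFP36L2 at 201368_at reaches 3.39, and the red and grey bars of both BTG1 probe sets point in opposite directions.

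The 5 genes outside the set whose levels over the 4 arrays lay closest to those of ZFP36, by Euclidean distance after subtracting each gene's mean, were CACYBP (distance 0.0387), MSMO1 (0.0554), HSPA13 (0.0701), TRIB3 (0.0864) and TES (0.0954). Their differences between celastrol and DMSO were 1.02, 1.04, 1.04, 1.09 and 0.98. The likeness rests on 4 arrays in 2 groups. On DMSO replicate 3, which the distance did not use, CACYBP, MSMO1 and TES were at 10.05, 8.45 and 8.28, above their levels on both other DMSO arrays, as ZFP36 was. HSPA13 and TRIB3 were at 5.81 and 6.49, below theirs.

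In each of the 7 lists of decay machinery, kinases and partners with which these regulators work, 0 genes passed the test, while 1 described ZFP36 target did. The medians of the 7 lists lay between -0.10 and -0.02, and single genes differed more, down to -0.88. In all 8 lists of decay genes, their partners and their targets, 107 of 134 genes had a probe set and 84 passed the filter. The limma test (Benjamini-Hochberg adjustment over all 13329 probe sets) called 1 of these 84 higher and 0 lower, where it called 0.569% and 0.47% of all 8091 genes. A 2-fold difference was reached by 0 of the 84. Their median difference was -0.04, against -0.02 for all genes tested, and 17 of them had an unadjusted p under 0.05, as did 1633 of the 8091.

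The CCR4-NOT deadenylase, which both families recruit, had 8 tested subunits, 0 called and a median of -0.08, within a range from -0.21 for CNOT9 to 0.10 for CNOT3; 1 of them had an unadjusted p under 0.05. This median rested on single arrays: it was -0.0076 without celastrol replicate 2, 0.026 without DMSO replicate 2 and 0.091 on all 5 arrays. The medians of the other 7 lists kept their sign without any 1 of the 4 arrays. CNOT8, a catalytic subunit that BTG and TOB proteins bind, read 7.38 and 7.43 with celastrol against 7.55 and 7.51, a difference of -0.13 (limma SE 0.0348, adjusted p = 0.222). The dimmer CNOT8 probe sets were at -0.08 and 0.06. CNOT3, another subunit, was at 0.10 (limma adjusted p = 0.38), and at 0.05 at its dimmer probe set. Among the PAN2-PAN3 and PARN deadenylases and poly(A)-binding proteins, 0 of 8 were called, with a median of -0.02 and 0 with an unadjusted p under 0.05. PAN2, a catalytic deadenylase subunit, was at -0.09 (limma adjusted p = 0.359) and PABPN1, the nuclear poly(A)-binding protein, at -0.14 (limma adjusted p = 0.526). The dimmer PABPN1 probe sets were at -0.20 and -0.07.

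Decapping and exonuclease genes had 0 of 13 called, a median of -0.03 and 3 with an unadjusted limma p under 0.05. LSM4, of the ring that binds deadenylated ends, was at -0.26 at its brightest probe set (limma adjusted p = 0.0993). Its other probe sets were at -0.14 and -0.06. EDC3, an enhancer of decapping, had the largest difference of that list, with 6.75 and 6.65 with celastrol against 7.18 and 7.39, or -0.59 (limma SE 0.0967, adjusted p = 0.122). The exosome and its SKI cofactors had 0 of 11 called, a median of -0.10 and 3 with an unadjusted p under 0.05. EXOSC2, an RNA-binding exosome subunit, was at -0.31 (limma adjusted p = 0.113) and EXOSC8, of the exosome ring, at 0.18 (adjusted p = 0.232). The dimmer EXOSC2 probe set was at -0.44 (limma adjusted p = 0.118). The groups of EDC3 did not overlap, but its difference did not pass the threshold.

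Other proteins that bind AU-rich or related elements had 0 of 12 called, a median of -0.07 and 1 with an unadjusted p under 0.05. That one was ZC3H12A (Regnase-1), an endonuclease for inflammatory mRNAs, which read 6.27 and 6.18 with celastrol against 7.18 and 7.02. Its difference of -0.88 (limma SE 0.0765) is 0.544 of the DMSO intensity and the lowest of all 84 genes. It missed the threshold (limma adjusted p = 0.0631) and passed under 5 of the 16 alternatives. Those without the dimmest 60% or with another normalization called 306 to 389 probe sets in all, against 121 in the fit reported. HNRNPD (AUF1), a binder of AU-rich elements with 6 probe sets, was at -0.20 at the brightest (limma adjusted p = 0.301). Its other probe sets, all past the filter, lay nearer 0, between -0.14 and 0.02.

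Kinases of the p38 and MK2 branch phosphorylate ZFP36, which then binds phosphoserine-binding adaptors of the YWHA family, and the phosphatase PP2A reverses this. Of 16 such genes 0 were called, with a median of -0.07, and 4 had an unadjusted p under 0.05. MAP2K6, a kinase that activates p38, read 5.76 and 5.87 with celastrol against 6.49 and 6.45, a difference of -0.65 (limma SE 0.0531, adjusted p = 0.0605). Of the 16 alternatives, it passed under 4 at -0.65 to -0.62, and under the one that averages probe sets at -0.36 (limma adjusted p = 0.0469). Its other probe set, below the filter, was at -0.08. PPP2CB, a catalytic subunit of PP2A, was at 0.28 (limma adjusted p = 0.106), and at -0.07 at a probe set below the filter. Other partners of BTG and TOB proteins, among them SMAD proteins and the methyltransferase PRMT1, had 0 of 9 called, a median of -0.05 and 2 with an unadjusted p under 0.05. SMAD1, a mediator of BMP signalling, was at 0.37 (limma adjusted p = 0.11), and at 0.08 at a probe set below the filter. CNOT8 also stands in this list.

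Of 31 mRNAs described elsewhere as ZFP36 targets, most of them cytokines and growth regulators, 27 had a probe set and 10 passed the filter. Their median was 0.13, within a range from -0.36 for E2F1 to 0.71 for DUSP1, and 1 rose and 0 fell. DUSP1, a phosphatase that switches off p38 and JNK, rose from 6.24 and 6.27 with DMSO to 6.99 and 6.93, a difference of 0.71 (limma SE 0.039, adjusted p = 0.0452), or 1.63-fold. Its dimmer probe set (201044_x_at) was at 0.08 (adjusted p = 0.57), and averaging the probe sets ended the call. The DUSP1 call was also lost with no filter (limma adjusted p = 0.0752), where 2 of 22215 probe sets were called. With the replicate block (limma adjusted p = 0.199) and on all 5 arrays (0.863) 0 of 13329 probe sets were called. These 2 fits therefore say nothing about DUSP1 in particular. Its difference was 1.48 on all 5 arrays, and 0.67 to 0.74 with any 1 of the 4 arrays left out. VEGFA, which encodes an angiogenic growth factor, was at 0.64 at its brightest probe set (limma SE 0.0807, adjusted p = 0.0922). Of its other 3, 212171_x_at rose by 0.71 (adjusted p = 0.0388), while 210513_s_at and 211527_x_at were at 0.64 and 0.39 without passing. CDKN1A, also on this list, was at 0.67 and was not called. The list median depended on the filter: it was 0.09 with none and 0.64 with the dimmest 60% left out, which keeps fewer genes. It was 0.085 without celastrol replicate 1, 0.19 without DMSO replicate 2 and 0.0069 on all 5 arrays. Of the 10 targets tested, 7 stood above 0 and 3 below, among the latter E2F1, a cell cycle transcription factor, at -0.36 and CCND1 (cyclin D1) at -0.26, and 4 of the 10 had an unadjusted p under 0.05.

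**Figure D4:**
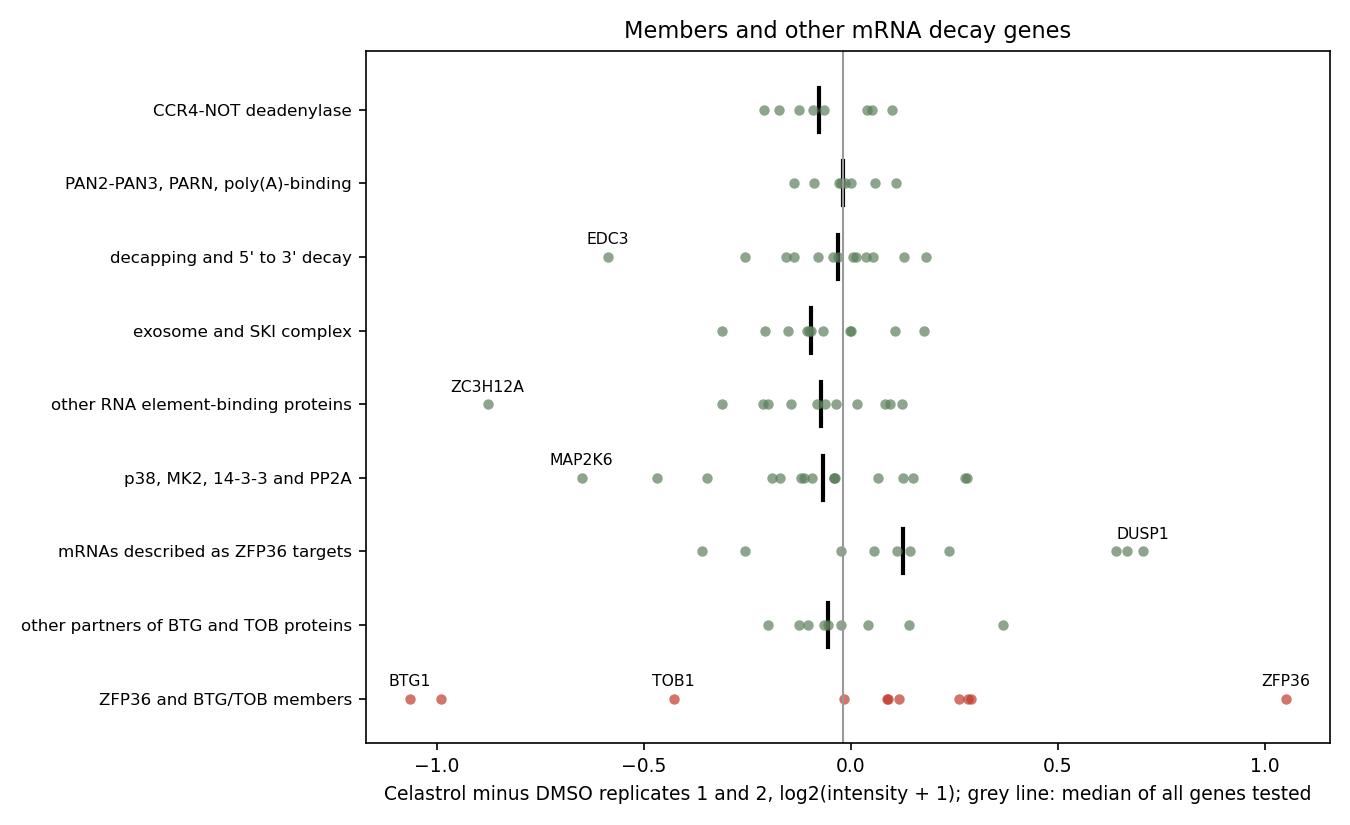
Celastrol minus DMSO replicates 1 and 2, in log2(intensity + 1), for the tested genes of the 8 lists (green, black bar at each list's median) and for the 11 member probe sets (red), with the median of all genes tested as a grey line. List medians lie between -0.10 and 0.13. ZFP36 lies at 1.05, the rise by which the set was picked, and BTG1 at -1.06, so neither is weighed against the listed genes.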

How the data were processed

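RNA was extracted with Trizol and hybridised as biotinylated cRNA, per the labels' protocols. The values deposited by the authors are linear intensities, 1 for each probe set on each array. They were made with RMA, per the submitters' processing notes; its version and any genome build are not given in the sources used here. DMSO arrays were assigned by title, since their description names celastrol. All 5 columns were read as log2(intensity + 1) with no further normalization. Genes come from the platform annotation: 19724 probe sets name 1 gene, 568 several and 1923 none.

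The fit was limma 3.58.1 in R 4.3.3 (lmFit, eBayes, two-sided, Benjamini-Hochberg, threshold 0.05) on celastrol replicates 1 and 2 and DMSO replicates 1 and 2, without the 40% of probe sets of lowest mean over these 4 arrays; it was tested on simulated data. A listed gene is its brightest probe set among those naming it alone. Per-member SEs come from the spread of the 2 arrays in each group. Members, lists, arrays and filter were chosen with earlier results of these data known, among them that a filter on dim probe sets gives more calls than none. Named genes are all member probe sets, per list the called genes and otherwise those of smallest p up to 2, and the 5 nearest to ZFP36. The genes at the ends of some lists and the ZFP36 targets CDKN1A and CCND1 are named as well. Alternatives covered the filter, normalization, pseudocount, variance model, arrays left out or added, the replicate block and averaged probe sets. Proteins were not compared, as no protein table was at hand. Equal replicate numbers carried no sign of pairing: the replicate differences of both groups correlated at -0.0197.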

Additional observations from a re-analysis of the deposited data

Results flagged for a closer look

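DMSO replicate 3 is outside the comparison of celastrol with DMSO, and 5 member probe sets read at least 2-fold above the other DMSO arrays on it. On the log2 scale ZFP36L2 was higher by 3.39 at 201368_at, by 2.37 at 201369_s_at and by 1.44 at 201367_s_at. ZFP36 was higher by 1.55 and ZFP36L1, at 211962_s_at, by 1.47. These are values of 1 array. That array correlated with the other 4 at 0.843 to 0.844, and no outlier test was run within groups of 2 or 3 arrays.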

How the results depend on the processing

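The number of called probe sets, 121 of 13329, depended on the settings. The difference of ZFP36, by which the set was picked, fell to 0.53 on all 5 arrays, and those of BTG1 were -1.25 and -1.18. After each other normalization and with the larger pseudocount these differences kept their sign. Without any 1 of the 4 arrays they could not change sign, since at each probe set all 4 pairs differed in the same direction. The filter, the variance model and the balanced block leave a difference as it is. Limma called 2 probe sets with no filter on dim probe sets, 343 when the dimmest 60% were left out, 389 after quantile normalization, 306 after median centring and 328 after cyclic loess. It called 0 on all 5 arrays, 0 with the replicate block and 0 whichever of the 4 arrays was left out; an unadjusted p under 0.05 was found for 424 probe sets on all 5 arrays, 2099 with the block and 2742 to 2977 without 1 array. The block and each fit without 1 array keep 1 residual degree of freedom, and a lone array is then assumed to vary like the other group. Decay pathway genes called, 1 in the fit reported, were 3 with the dimmest 60% left out, 4 after quantile normalization, 3 after median centring, 4 after cyclic loess and 3 with a gene's probe sets averaged. They were 0 with no filter, 0 on all 5 arrays, 0 with the replicate block and 0 without any 1 array. DUSP1 was among them in each of these fits with a call except that of averaged probe sets, and ZC3H12A and MAP2K6 joined in all 5 fits with 3 or 4. With DMSO replicate 3 included, ZFP36L1 turned to -0.21 (211962_s_at) and -0.16 (211965_at), ZFP36L2 to -0.68 (201369_s_at) and TOB1 to 0.26. On all 5 arrays the list medians of the CCR4-NOT deadenylase, the other deadenylases with poly(A)-binding proteins, the kinase list and the partners of BTG and TOB also turned above 0, to 0.091, 0.021, 0.061 and 0.062, and under the 3 other normalizations that of the other deadenylases lay at 0.0002 to 0.0054. The number of arrays limits all values, and members near the floor, ZFP36L2 above all, may hide changes.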
